A study of Rattus norvegicus with 4 samples.

Results

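The comparison is of the liver of a rat that had part of its liver removed and was given saline, with a liver labelled as a naive control. A liver remnant is thereby set against a liver with no stated operation. The members are the genes with a value other than 0 in any library of the deposited table, which are 12874 of its 31457 rows, and the quantity described for each is the saline value minus the naive value on a log2 scale. All livers were from the Lewis strain with the allotype RT1L. The saline group is a partial hepatectomy followed by an intravenous dose of saline, and no operation or dose is stated for the naive group. The same series holds a liver given ASCs-siRNC and a liver given ASCs-miR27b after the same operation, called the siRNC and the miR-27b liver here, and their values are used beside the main comparison. Each group is 1 library. The time between operation and harvest, the age and sex of the animals, and whether a library pools several animals were not given in the sources used here.

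After partial hepatectomy the hepatocytes that remain, which are normally quiescent, are primed by cytokines of the interleukin-6 family acting through STAT3. They then re-enter the cell cycle under growth factors such as hepatocyte growth factor, while the liver goes on with its metabolic and secretory work. Kupffer cells, the resident macrophages, supply much of the early cytokine signal, and endothelial and stellate cells later rebuild vessels and matrix. Circulating growth hormone, glucocorticoids and feeding also set the level of many liver transcripts, and several of these follow the time of day.

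With 1 library a group there is no replicate error, no test and no p-value. Genes are described by size, and a gene is called 2-fold higher or lower at a log2 difference of at least 1 in size. The deposited values are relative to a baseline of each gene, close to the median of its 4 libraries, so they can be compared between libraries within a gene but not between genes. For 3817 genes (29.6%) the number of reads behind the values could be inferred from the spacing of the values, and these are called recovered reads. For these, the log2 difference carries a 95% interval, exact by the Clopper-Pearson method on the reads of the pair, which covers counting error only and not the difference between animals. Genes were kept where they averaged at least 10 normalized reads over the 4 libraries, or where the values showed a comparable level, which left 9384. Size factors, the scaling for depth as inferred from the values, were 1.04 in the saline, 1.01 in siRNC, 0.956 in miR-27b and 0.977 in the naive library.

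Hepatocyte marker transcripts were present in both libraries and differed by less than 2-fold. The saline minus naive difference was -0.05 for Alb, the main plasma protein, 0.01 for Cps1, the first enzyme of the urea cycle, and 0.04 for Apoa1, the main apolipoprotein of high density lipoprotein. Serpina1, a secreted protease inhibitor, differed by -0.03 and Ttr, the thyroxine carrier transthyretin, by -0.44. Of the defining markers of other tissues, Ckm, Myh4, Adipoq and Prss2 (muscle, adipose tissue and pancreas) were at 0 in all 4 libraries, as were Upk3b (mesothelium), Mpo and Elane (neutrophil granules) and Krt7 (bile ducts). Some other genes of these lists were higher in the saline library. Of 7 kept genes of muscle, adipose tissue and pancreas, 4 were 2-fold higher and 1 was lower, with a median of 1.26. With no level filter the median over 12 genes was 0.48. Cpb1, a pancreatic carboxypeptidase, had 198 reads in the saline, 187 in siRNC, 246.2 in miR-27b and 33 in the naive library, and Fabp4, a fatty acid carrier of adipocytes and macrophages, was higher by 2.97. Msln, the mesothelial marker mesothelin, had 7.96 reads in the saline library and 0 in the naive one. The 9 mesothelium and mast cell genes with recovered reads summed to 55 in the saline library and 19 in the naive one. These sums include Krt19, with 20.99 reads in the saline library and 5 in the naive one, which is also in the bile duct list. Whether tissue around the liver entered the samples was not tested.

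Across the 9384 kept genes, 565 were at least 2-fold higher in the saline library than in the naive one (6.02%) and 350 were at least 2-fold lower (3.73%). The median difference was -0.01, and the 5th and 95th percentiles lay at -0.86 and 1.12. With no level filter 1092 of all 12874 members were 2-fold higher (8.48%) and 850 lower (6.6%). Of 3119 genes whose mean level, or its lower bound, was at least 50 normalized reads, 150 were higher (4.81%) and 79 lower (2.53%). For genes without recovered reads that bound rises with the spread between libraries, so entry depends partly on the difference itself. A gene high in the operated livers enters more readily than one high in the naive liver alone. At 4-fold the counts were 132 higher (1.41%) and 75 lower (0.799%). Among the 1536 kept genes with recovered reads, 197 were 2-fold higher (12.8%) and 77 were 2-fold lower (5.01%). Of these 1536 genes, 168 were 2-fold higher with an interval wholly above 0 (10.9%), and 70 were 2-fold lower with an interval wholly below 0 (4.56%). Counts over gene lists are to be read against 6.02% higher and 3.73% lower. The siRNC and miR-27b livers are compared with the same naive library, so their differences from it are not independent of the saline one. Where adding 5 normalized reads to each library moved a fold by over 1.5 times, that value is given too, with levels that could not be recovered set to the lowest that the values allow. The highest and lowest genes included parts of the circadian clock, growth hormone signalling, metal binding, innate immunity, mitosis and glycogen control, which are taken in turn below.

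**Figure D1:**
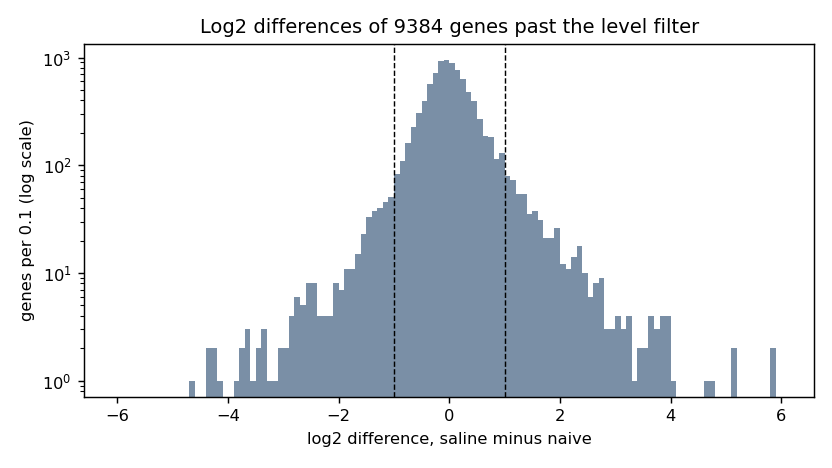
Histogram of the log2 difference, saline minus naive, over the 9384 kept genes (horizontal axis) with the number of genes per bin of 0.1 on a log scale (vertical axis). The dashed lines mark 2-fold. The bulk is centred at -0.01 and the upper tail holds more genes than the lower one, 565 against 350 beyond 2-fold.

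The upstream sequence of 3 genes that stood high in the saline library is shown first, because the letters known to be read by their regulators can be seen in it. Mt1a and Mt2A encode metallothioneins, which bind zinc and copper, and they are induced through metal response elements bound by the factor MTF1. Cish encodes a suppressor of cytokine signalling that growth hormone induces through STAT5. Capitals mark TGCGCNC and TGCACNC, the core letters of a metal response element, in the metallothionein promoters, and TTCNNNGAA, the letters of a STAT site, in the Cish promoter. Both strands were searched, so a capital run may be the reverse complement of these letters. Each sequence runs 5′ to 3′ on the strand of the gene, from 250 bases before to 50 bases after the annotated start, in the RefSeq annotation of the rat build GRCr8, which is not the build of the deposited table.
Mt1a, minus strand of chr19:10832926-10833225: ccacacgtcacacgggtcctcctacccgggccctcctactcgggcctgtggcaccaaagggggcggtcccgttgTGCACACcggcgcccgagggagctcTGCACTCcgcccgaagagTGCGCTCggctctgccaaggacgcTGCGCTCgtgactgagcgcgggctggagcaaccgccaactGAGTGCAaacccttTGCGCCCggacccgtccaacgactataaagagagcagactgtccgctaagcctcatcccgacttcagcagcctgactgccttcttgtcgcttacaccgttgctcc
Mt2A, minus strand of chr19:10838659-10838958: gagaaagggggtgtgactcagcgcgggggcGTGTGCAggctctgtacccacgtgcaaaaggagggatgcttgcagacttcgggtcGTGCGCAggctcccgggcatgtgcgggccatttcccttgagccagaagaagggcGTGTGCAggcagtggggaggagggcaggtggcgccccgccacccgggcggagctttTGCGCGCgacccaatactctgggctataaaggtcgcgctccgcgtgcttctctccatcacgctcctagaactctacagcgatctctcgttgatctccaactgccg
Cish, plus strand of chr8:116850719-116851018: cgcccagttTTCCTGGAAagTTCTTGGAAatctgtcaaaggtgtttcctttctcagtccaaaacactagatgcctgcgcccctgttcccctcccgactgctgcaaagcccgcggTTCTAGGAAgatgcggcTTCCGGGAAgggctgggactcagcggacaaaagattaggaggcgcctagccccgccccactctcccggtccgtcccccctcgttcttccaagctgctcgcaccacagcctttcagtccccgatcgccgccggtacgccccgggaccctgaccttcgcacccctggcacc

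The Mt1a promoter, listed under Mt1 in RefSeq, held 3 matches to TGCGCNC and 3 to TGCACNC, and the Mt2A promoter held 2 of each. Of all 33469 rat promoters of the same length, 14.1% held at least 1 TGCGCNC and 12.2% at least 1 TGCACNC. The Cish promoter held 4 matches to TTCNNNGAA, a sequence found in 8.87% of all promoters. No matches overlapped in these 3 windows. The same windows of Socs3 and Bcl6 held no TTCNNNGAA, and those of Dbp and Per3 held neither the E-box CACGTG (6.42% of all promoters) nor the D-box TTATGNAA (3.66%). A match is a string of letters in this window and says nothing of binding. A window without a match says nothing of the sequence of that gene outside it, which was not searched.

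Mt2A stood at 0.62 in the saline, -0.34 in siRNC, 0.49 in miR-27b and -3.33 in the naive library, as deposited log2 values. It was the seventh highest named gene of those 3119 genes, called the stricter set here, at 15.5-fold. Mt1a stood at 0.49, -0.49, 0.33 and -2.09 in the same libraries, a log2 difference of 2.58 between saline and naive. The naive liver was lowest of the 4 for both metallothioneins. Slc39a4, a zinc importer, was lower in the saline library at -1.25. Of 37 kept genes of metal and iron handling, 3 were 2-fold higher and 4 were 2-fold lower, with a median of -0.11. Near-identical metallothionein copies can share reads, and how the authors assigned such reads was not given in the sources used here.

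Genes of the growth hormone axis differed in both directions. Growth hormone acts on the liver through its receptor, the kinase JAK2 and STAT5, and STAT5 in turn induces feedback inhibitors and represses Bcl6. Cish had 77 reads in the saline, 140.4 in siRNC, 20 in miR-27b and 6 in the naive library. The saline count was far above the naive one, with a log2 difference of 3.59 (interval 2.40 to 5.08, and 2.83 with 5 reads added). Socs2, a second feedback inhibitor, was higher by 1.36, Prlr, the prolactin receptor, by 3.08, and Onecut1, the hepatocyte factor HNF6, by 2.68. Bcl6, a transcriptional repressor, stood at -1.97 in the saline, 0.00 in siRNC, 0.68 in miR-27b and 2.70 in the naive library. At -4.67, or 25.5-fold lower, it had the most negative difference of the kept genes. Esr1, the oestrogen receptor, had a difference of -1.81, and Mup4, a major urinary protein gene, had a difference of -1.67.

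Igf1, the growth factor the liver secretes under growth hormone, differed by -0.52, its carrier Igfals by -0.76, Ghr, the receptor, by -0.25, and Cyp2c11, a cytochrome known from male rats, by -0.51. In all, 4 of 15 kept genes of this list were 2-fold higher and 3 were 2-fold lower, and the median was -0.51, while the mean was 0.01. Onecut1 and Socs2 were at odds between the operated livers, with siRNC minus naive differences of 3.62 and 1.19 but miR-27b minus naive differences of -0.15 and -0.38.

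The circadian clock genes differed in both directions. Dbp, an output factor of the clock, stood at 0.00 in the saline, 1.59 in siRNC, -1.59 in miR-27b and -5.13 in the naive library, so that the saline liver was 35.1-fold above the naive one. Per3, a repressor of the clock, stood at 0.03, 1.57, -1.86 and -3.96 in the same libraries. Nr1d1 and Nr1d2, the REV-ERB receptors that repress Arntl, were higher by 1.89 and 1.13 (Nr1d2 by 0.93 with 5 reads added), and Nampt, the enzyme that remakes NAD and is itself clock controlled, by 1.92. Arntl, which encodes BMAL1, and its partners Clock and Npas2 were lower, with differences of -1.07, -1.37 and -1.26. Npas2 had 86.42 reads in the saline, 28 in siRNC, 110 in miR-27b and 195.3 in the naive library. Bhlhe40, a clock repressor that also answers to stress, was lower with a difference of -2.25. Per1 and Per2, which also answer directly to hormones and light, were within 0.4 of naive at -0.31 and -0.29.

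Of 20 kept clock genes, 5 were 2-fold higher and 4 were 2-fold lower, and the median was 0.12, or -0.08 with no level filter. The spread between the operated livers was itself wide, for Dbp 6.72 in siRNC and 3.54 in miR-27b minus naive, and for Per2 2.08 in siRNC and -1.75 in miR-27b. The hour at which each liver was taken was not given in the sources used here, so a difference in harvest time cannot be told apart from one of the operation.

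**Figure D2:**
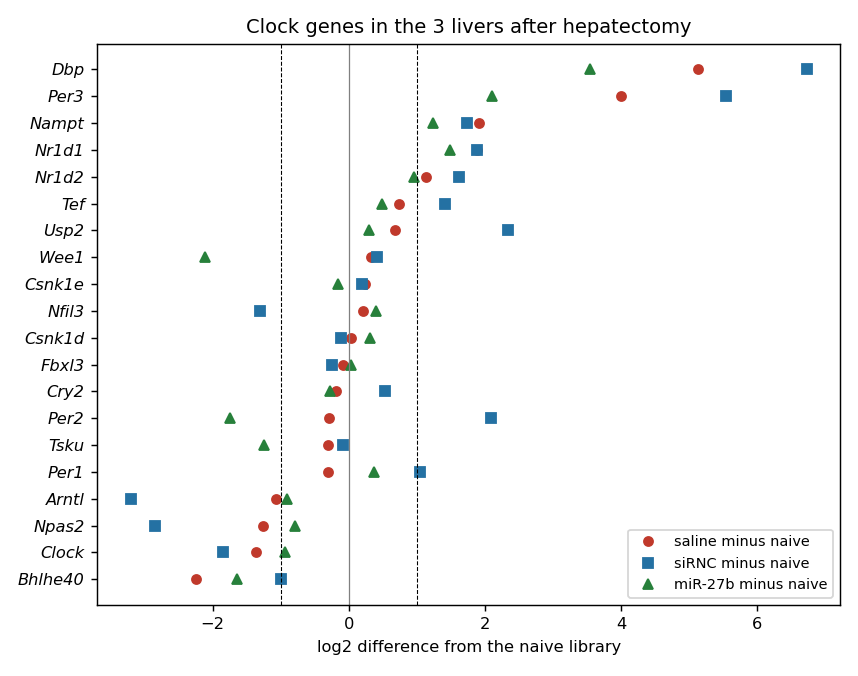
Log2 difference from the naive library (horizontal axis) of the 20 kept clock genes (rows, ordered by saline minus naive) in the saline (circles), siRNC (squares) and miR-27b (triangles) libraries, with dashed lines at 2-fold. In the saline library Dbp lies farthest to the right, at 5.13, and Bhlhe40 farthest to the left, at -2.25.

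Genes of mitosis were lower in the saline liver than in the naive one. Top2a, the topoisomerase that untangles chromosomes, had 14 reads in the saline, 16 in siRNC, 37.79 in miR-27b and 106.06 in the naive library. Its saline minus naive difference was -3.01 (interval -3.93 to -2.20). Cdc20, the activator of the anaphase promoting complex, had 5 reads in the saline library against 41.62 in the naive one, and Cenpf, a kinetochore protein, had 3 against 24. Ccna2 and Ccnb1, the cyclins of S phase and mitosis, had 4 and 6 reads in the saline library against 26.49 and 26 in the naive one. With 5 reads added the differences of Cdc20, Cenpf, Ccna2 and Ccnb1 were -2.28, -1.91, -1.86 and -1.55. Mki67, the proliferation marker Ki-67, differed by -1.54 and Cdk1, the mitotic kinase, by -1.71.

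Of 48 listed mitosis genes, 38 had a value and 15 were kept. Of these 15, 11 were 2-fold lower and 0 were 2-fold higher, with a median of -1.90, against 3.73% lower among all kept genes. Because a gene low in the saline library could be kept through its naive level, the members are also given with no level filter: 35 of 38 were below 0, with a median of -1.27. The 24 members with recovered reads summed to 177.5 reads in the saline, 162.7 in siRNC, 338.5 in miR-27b and 534.6 in the naive library. The naive liver had the highest sum. Many single members rest on fewer than 10 reads in the saline library, and Stmn1, with 35 reads in the saline library and 32 in the naive library, did not follow.

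In the lists for earlier phases of the cell cycle most differences were small. The DNA replication list held 20 kept genes with a median of -0.17, and Pold1, a subunit of DNA polymerase delta, was the only one past 2-fold, with 5.39 reads in the saline library and 20 in the naive library (difference -1.98, interval -3.86 to -0.63, and -1.32 with 5 reads added). The 16 kept G1 cyclins and inhibitors had a median of -0.13. Myc, a growth promoting factor, had 251.02 reads in the saline, 224 in siRNC, 273 in miR-27b and 112 in the naive library, a difference of 1.07 (interval 0.75 to 1.41). Ccnd1, cyclin D1, differed by -0.73, and Cdkn1a, the p21 inhibitor, by -0.64, short of 2-fold. Ribosome biogenesis, which precedes growth, had 53 of 64 kept genes above 0 and a median of 0.26, against a median of -0.01 for all kept genes. In that list only Rrs1, a large subunit assembly factor, passed 2-fold (1.32), and the median was -0.04 for siRNC minus naive and -0.14 for miR-27b minus naive.

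**Figure D3:**
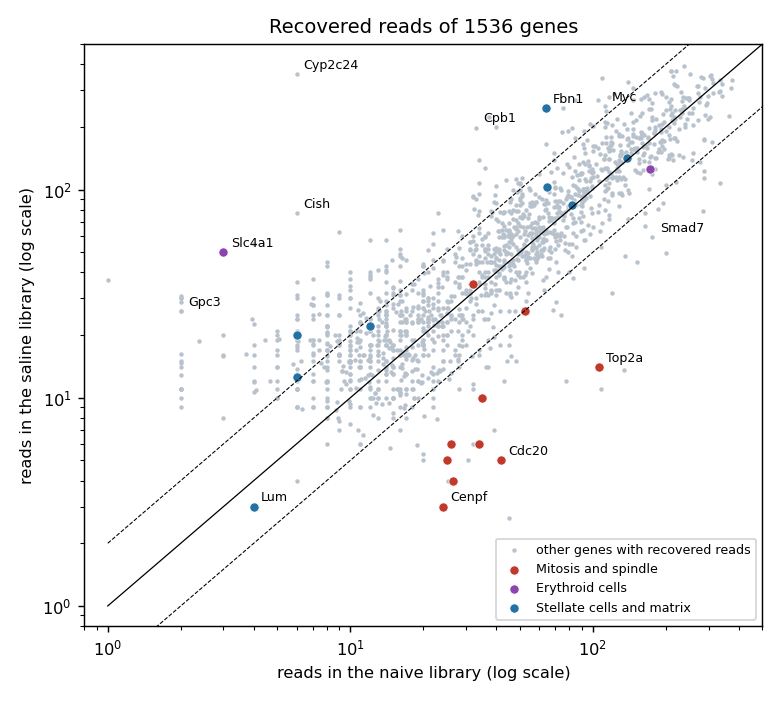
Reads in the saline library (vertical axis) against reads in the naive library (horizontal axis), both on log scales, for the 1536 kept genes with recovered reads, with solid and dashed lines at equality and at 2-fold before scaling for depth. Red points are mitosis genes, most of which lie below the lower dashed line, while Cyp2c24, Cish, Slc4a1 and Fbn1 lie far above the upper one.

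Growth factor genes themselves gave a mixed picture. Hgf, hepatocyte growth factor, differed by 0.24, and Tgfb1, which restrains hepatocyte division and fell short of the level filter, by 0.90, or 0.47 with 5 reads added. Tgfb2 had 30 reads in the saline, 24 in siRNC, 48.36 in miR-27b and 2 in the naive library (difference 3.82, interval 1.84 to 6.93, and 2.26 with 5 reads added), and Tgfb3 had 27.91 reads in the saline library and 8 in the naive library. Smad7, an inhibitor of TGF beta signalling, had 59 in the saline, 61 in siRNC, 47.34 in miR-27b and 176 in the naive library, a difference of -1.67 (interval -2.12 to -1.23). Id2 and Id4, targets of bone morphogenetic proteins, differed by -1.81 and -1.64, and Inhba, an activin subunit, by -2.48. Of 37 kept genes of these pathways, 3 were 2-fold higher and 5 lower, with a median of -0.12. Fgf21, a fasting hormone of the liver, was lower with a difference of -2.53, or -1.77 with 5 reads added, and Afp, alpha-fetoprotein of the fetal liver, differed by -0.52. In the Wnt, Hippo and Notch list, Sfrp1 and Fzd6 were higher (25 and 49 reads in the saline library against 8 and 16 in the naive one), while Axin2, a target of Wnt signalling, was lower at -1.25. That list had 5 of 38 kept genes 2-fold higher, 4 lower and a median of -0.02.

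Genes of interleukin-6 and STAT3 signalling were higher in the saline liver more often than kept genes as a whole. Osmr, a receptor of the interleukin-6 family, stood at 0.00 in the saline, 0.24 in siRNC, 0.56 in miR-27b and -3.14 in the naive library. Socs3, the feedback inhibitor of STAT3, was higher by 2.05, Bcl3 by 1.56 and Stat3 itself by 1.28. Of 19 kept genes of this pathway, 5 were 2-fold higher and 0 lower, with a median of 0.62, against 6.02% higher among all kept genes. The shared receptor subunit Il6st and the receptor Il6r were above naive by 0.62 and 0.67, and Il6 itself was listed at 0 in every library.

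Positive acute phase proteins, which the liver secretes in inflammation, followed. Of 29 kept members, 10 were 2-fold higher, 0 were lower and 26 were above 0, with a median of 0.80, against 6.02% higher among all kept genes. Lcn2, which sequesters bacterial iron carriers, stood at 0.00 in the saline, -1.01 in siRNC, 3.19 in miR-27b and -2.25 in the naive library, and with 5 reads added its difference was 1.42. Kng1, a kininogen, was higher by 2.65, and Orm1, an acid glycoprotein of plasma, by 1.95. The kininogen genes Kng1, Kng1l1 and Kng2 are near-identical and can share reads. Complement gave a median of 0.36 over 35 kept genes, with 7 higher and 1 lower. The higher ones included C1qa, C1qb and C1qc, subunits of the first component made by macrophages, at 1.32, 1.25 and 1.12 (C1qc at 0.92 with 5 reads added), and the lower one was Mbl2, a mannose binding lectin made by hepatocytes, at -1.16.

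Among chemokines and NF-kB genes, Cxcl1, a neutrophil attractant, stood at 2.11 in the saline, -0.93 in siRNC, 5.76 in miR-27b and -1.88 in the naive library. With 5 reads added the saline minus naive difference was 2.10, and the 3 operated livers differed widely among themselves. Ccr1, a chemokine receptor, had 16.13 reads in the saline library against 2 in the naive one (2.92, or 1.54 with 5 reads added), and Il1r1, an interleukin-1 receptor, was higher by 2.21. Nfkbia, the inhibitor of NF-kB that it induces, was lower with a difference of -1.21, at the edge of the 2-fold call with 5 reads added. This list had 9 of 32 kept genes 2-fold higher, 2 lower and a median of 0.57. The interferon response stood near the background, with 3 of 40 kept genes 2-fold higher and a median of 0.07. Mx1, an antiviral GTPase, was one of them, with 127 reads in the saline, 116.48 in siRNC, 128.75 in miR-27b and 36 in the naive library. The 21 kept genes of MHC class I and the immunoproteasome had a median of -0.04.

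Immediate early genes, which answer to a stimulus within minutes to hours, went both ways. Dusp1, a phosphatase that ends MAP kinase signalling, stood at -1.53 in the saline, 0.00 in siRNC, -0.57 in miR-27b and 2.27 in the naive library. Klf10, Egr1 and Zfp36 were also lower, with differences of -2.06, -1.71 and -1.33, while Klf9 was higher by 1.64. Of 22 kept genes, 4 were higher and 4 lower. Glucocorticoid responsive genes were likewise divided, with 10 of 32 kept genes 2-fold higher and 7 lower, and a median of 0.25. Fkbp5, a chaperone of the glucocorticoid receptor, differed by 1.79 in the saline, 0.25 in siRNC and 1.87 in miR-27b from naive, and Sds, serine dehydratase of gluconeogenesis, differed by 2.70, 1.81 and 1.57.

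Transcripts of macrophages were higher throughout their list. Marco, a scavenger receptor, stood at 0.05 in the saline, -0.44 in siRNC, 0.21 in miR-27b and -2.45 in the naive library, and Cd163, which takes up haemoglobin bound to haptoglobin, at 0.52, -0.18, 0.36 and -1.44. Hmox1, which breaks down haem, was higher by 2.17. Of 31 kept macrophage and Kupffer cell genes, 22 were 2-fold higher and 31 were above 0, with a median of 1.25, against 6.02% higher among all kept genes, and with no level filter the median over 33 was 1.22. Clec4f and Vsig4, known from Kupffer cells, differed by 1.28 and 1.22, and Timd4 was at 0 in all 4 libraries. In bulk tissue, more cells of a type and more RNA per cell cannot be told apart. S100a8 and S100a9, carried by neutrophils and monocytes, were higher by 2.33 and 2.79, or 1.48 and 1.86 with 5 reads added, in a list with 5 kept genes. The T and NK cell list held 4 kept genes, 1 of them 2-fold higher, and its recovered reads summed to 26.9 in the saline library and 32 in the naive library. The B and plasma cell list also held 4, of which Blk, Cd38 and Cd22 were 2-fold higher at 2.08, 2.04 and 1.19. With 5 reads added Blk was higher by 1.285, and Cd22 by 0.98, short of 2-fold. Recovered reads of the B and plasma cell list summed to 10.8 in the saline library and 4 in the naive library.

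Erythroid transcripts were higher among the kept genes. Slc4a1, the anion exchanger of the red cell membrane, had 50 reads in the saline, 43 in siRNC, 52 in miR-27b and 3 in the naive library, a difference of 3.97 (interval 2.34 to 6.30, and 2.72 with 5 reads added). Alas2, the erythroid enzyme of haem synthesis, was higher by 3.12, Sptb, the spectrin beta chain, by 3.59 (2.56 with 5 reads added), and the globin genes Hba1, Hba2, Hbb and Hbb-b1 by 2.33 to 2.36. Of 14 kept genes, 8 were 2-fold higher and 1, Tfrc, the transferrin receptor, was lower at -1.06 (-0.87 with 5 reads added), with a median of 1.68. The list is not uniform below the filter: with no level filter the median over 26 genes was 0.02. Globin genes share sequence, so their values are not independent. What share of these reads came from blood left in the tissue was not tested.

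Vessel, matrix and bile duct genes were higher on the whole. Of 44 kept stellate cell and matrix genes, 14 were 2-fold higher and 2 lower, with a median of 0.71. Fbn1, a microfibril protein, had 246 reads in the saline, 269 in siRNC, 315.67 in miR-27b and 64 in the naive library, a difference of 1.85 (interval 1.45 to 2.27). Eln, elastin, was higher by 2.15, Tagln, of contractile cells, by 1.91 (1.16 with 5 reads added), and Col1a1, fibrillar collagen, by 1.75, with a Col1a1 difference of 4.50 in the siRNC liver. Against them, Lox, which crosslinks collagen, was lower at -2.86. Of the stellate cell markers, Lrat and Pdgfrb differed by -0.10 and -0.46, and Des, below the level filter, had 9.33 reads in the saline library and 4.03 in the naive library. Endothelial genes had a median of 0.60 over 25 kept genes, with 6 higher and 0 lower. Vwf, the von Willebrand factor, had 286.52 reads in the saline, 131.58 in siRNC, 293 in miR-27b and 122 in the naive library. Krt19, a bile duct keratin, had 20.99 reads in the saline library and 5 in the naive library, and Gpc3, a glypican of fetal liver, had 26 against 2. With 5 reads added their differences were 1.32 and 2.09, against 1.98 and 3.61 without. The bile duct and progenitor list had 5 of 14 kept genes 2-fold higher and a median of 0.85.

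Thbs1, thrombospondin-1, stood apart from the matrix genes around it. Thbs1 stood at -2.62 in the saline, 2.21 in siRNC, 0.62 in miR-27b and 0.00 in the naive library, a difference of -2.62, or -1.72 with 5 reads added. The saline liver was the lowest of the 4, and neither of the other operated livers was below naive. The saline library was likewise the lowest for Pnpla3, a lipid droplet protein, at -1.82, against 1.76 in siRNC, 1.29 in miR-27b and 0.00 in the naive library.

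**Figure D4:**
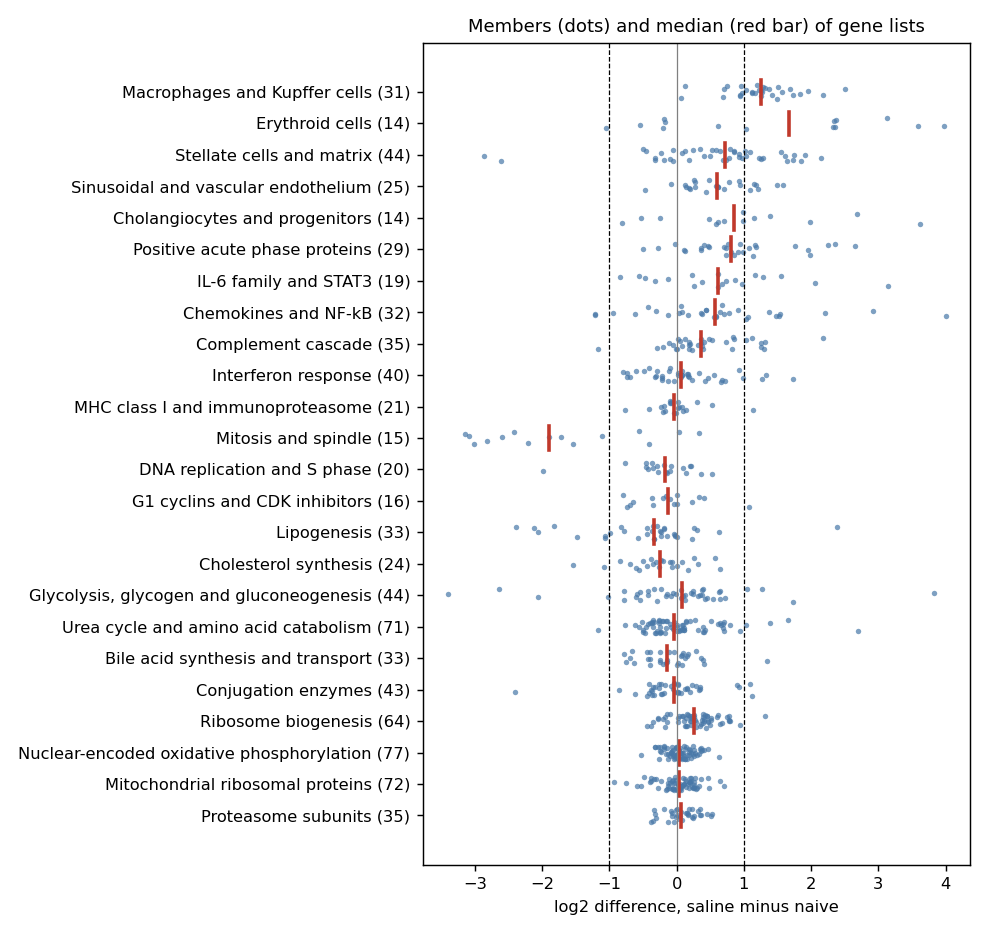
Log2 difference, saline minus naive (horizontal axis), of each kept member (dots) of 24 gene lists (rows, number of kept genes in brackets), with the list median as a red bar and dashed lines at 2-fold. Macrophage, erythroid and acute phase lists lie to the right, mitosis lies to the left at a median of -1.90, and oxidative phosphorylation and proteasome lists are narrow around 0.

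Several fat synthesis genes were lower in the saline liver. Srebf1, the transcription factor that insulin uses to switch on fat synthesis, stood at -1.45 in the saline, 0.72 in siRNC, 0.00 in miR-27b and 0.67 in the naive library. Mid1ip1, which activates acetyl-CoA carboxylase, had a difference of -2.39, and Gpam, which starts triglyceride synthesis, of -1.48. Of 33 kept lipogenic genes, 7 were 2-fold lower and 1 higher, with a median of -0.34, against 3.73% lower among all kept genes. The higher one was Lpin1, a phosphatidate phosphatase. Lpin1 stood at 2.38 in the saline, -0.02 in siRNC, 2.38 in miR-27b and 0.00 in the naive library. The median of the lipogenic list was 0.025 for siRNC minus naive and -0.03 for miR-27b minus naive. In the cholesterol list Hmgcs1, an early enzyme of the pathway, was lower at -1.55. Its median of -0.25 in the saline liver stood beside 0.41 for siRNC and 0.04 for miR-27b minus naive.

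Genes of glycogen and sugar metabolism differed in both directions. Ppp1r3c, a subunit that brings a phosphatase to glycogen, stood at -0.18 in the saline, -0.43 in siRNC, 0.00 in miR-27b and 3.22 in the naive library, 10.6-fold lower in saline than in naive. Its relative Ppp1r3b was lower at -2.64, while Ppp1r3d of the same family had 18 reads in the saline library and 7 in the naive library, a difference of 1.27 (interval -0.05 to 2.78). Hk2, a hexokinase that adult hepatocytes express little, had 30.26 reads in the saline, 8 in siRNC, 43.55 in miR-27b and 2 in the naive library, a difference of 3.83, or 2.28 with 5 reads added. Pkm, a pyruvate kinase of non-hepatocyte cells, was higher by 1.73, or 1.02 with 5 reads added. The 44 kept genes of sugar metabolism had 4 higher and 4 lower, with a median of 0.08. Fatty acid oxidation genes had 3 of 51 higher and 3 lower. Among them Cd36, a fatty acid importer, was higher by 2.78 (1.85 with 5 reads added) and Ppargc1a, a coactivator of fasting, by 1.83, while G0s2, an inhibitor of fat breakdown, was lower at -1.83.

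Drug metabolism contained the gene with the second highest difference among genes with a name in the stricter set. Cyp2c24, a cytochrome P450, had 357.8 reads in the saline, 49 in siRNC, 134 in miR-27b and 6 in the naive library, a difference of 5.81 (interval 4.67 to 7.27, and 4.97 with 5 reads added). Members of the Cyp2c family are similar in sequence and can share reads. Por, the reductase that supplies electrons to all microsomal P450 enzymes, was higher by 2.23, Cyp2b2 by 1.80 and Cyp3a2 by 1.03. Of 33 kept P450 genes, 6 were 2-fold higher and 1 was lower, with a median of 0.03. Cyp7a1, which sets the rate of bile acid synthesis, differed by 0.40 in the saline, 2.68 in siRNC and 2.02 in the miR-27b liver from naive. Conjugating enzymes had a median of -0.04 over 43 kept genes, and Gsta2, a glutathione transferase, was lower at -2.40, or -1.80 with 5 reads added. Gpx2, a glutathione peroxidase, was higher by 3.36, yet the list of NRF2 targets as a whole had 4 of 53 higher, 2 lower and a median of -0.03.

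The basic machinery of the cell differed little. None of 77 kept genes of oxidative phosphorylation, 72 of the mitochondrial ribosome and 35 of the proteasome was 2-fold apart, with medians of 0.03, 0.04 and 0.06. The 74 kept cytosolic ribosomal protein genes had a median of 0.11 and a single member past 2-fold, Rps2, at -3.23. Rps2 has close copies in the genome that can share its reads, and its siRNC and miR-27b minus naive differences were -2.97 and -4.68. Urea cycle and amino acid genes had a median of -0.04 over 71 kept members. Asns, asparagine synthetase, had 77 reads in the saline, 66.29 in siRNC, 54 in miR-27b and 23 in the naive library. Plasma carriers had 3 of 33 higher, 2 lower and a median of -0.07, and liver transcription factors had a median of -0.27 over 50 kept genes, with 4 higher and 3 lower.

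Several of the highest and lowest genes belong to none of these pathways. Spsb4, an adaptor of a ubiquitin ligase, had the highest difference among genes with a name in the stricter set, at 59.7-fold. It stood at 0.59 in the saline, 0.00 in siRNC, 0.88 in miR-27b and -5.30 in the naive library. Alox15, a lipoxygenase, stood at 0.01, -0.40, 0.89 and -4.71 in the same libraries. Antxr1, a receptor of the anthrax toxin, was higher by 3.72 (2.68 with 5 reads added), Fam134b, a receptor for turnover of the endoplasmic reticulum, by 3.23, and Upp2, a uridine phosphorylase, by 3.22. On the low side Inmt, an N-methyltransferase, had a difference of -2.99, Stac3 of -2.67, Sgk2, a kinase, of -2.55 and Ces2e, a carboxylesterase, of -2.44. Edar, a receptor of the tumour necrosis factor family, had 49.39 reads in the saline library against 200.42 in the naive one (difference -2.11, interval -2.60 to -1.66).

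**Figure D5:**
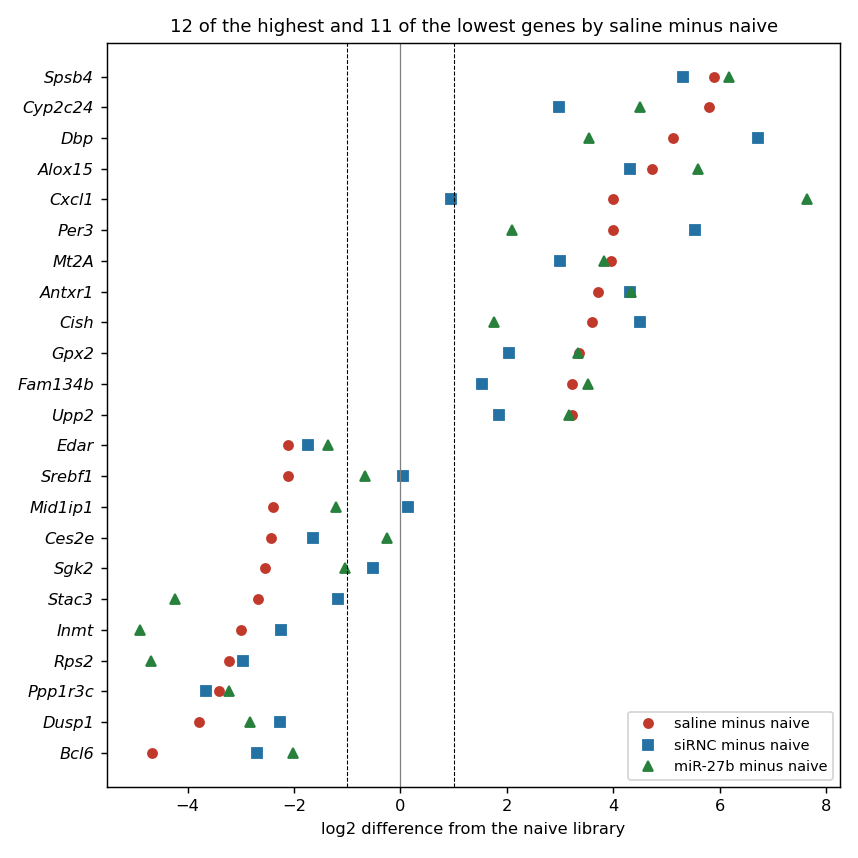
Log2 difference from the naive library (horizontal axis) of the 12 highest and 11 of the 12 lowest genes with a name in the stricter set (rows) in the saline (circles), siRNC (squares) and miR-27b (triangles) libraries, with dashed lines at 2-fold. Spsb4 at 5.90 and Bcl6 at -4.67 are the ends of the saline range, and Cxcl1 shows the widest distance between libraries, with 0.96 in siRNC and 7.64 in miR-27b.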

How the data were processed

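Poly(A)-selected RNA of rat liver was made into libraries with TruSeq reagents, per the labels' protocols, and read on an Illumina MiSeq, per the series' design text. The table holds 4 libraries, 1 a group, and samples were matched by source label. The values deposited by the authors are log2 values named normalized, per the file headers. DESeq and the build rn5 are named in the submitters' processing notes. The aligner, the counting tool and the use of strand were not given in the sources used here. Judged from the values, they behave as log2 of scaled reads, with a floor of 1 normalized read, relative to a baseline of each gene, so total depth is unknown.

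The worth of 1 read per library was taken from the commonest value among genes present in that library alone. Reads in steps of 1/101 were searched up to 400 and accepted at a posterior of 0.9. Among kept genes 69.1% of recovered values lay within 0.005 read of a whole number. Elsewhere a lower bound on the level came from the rounding of the stored values, which kept 7848 genes. That bound was set for the lowest library and scaled up by the differences of the others. Both level filters therefore depend partly on the differences. At 16 reads counting alone gives a log2 ratio an SD of 0.51, and at 256 reads 0.13. The recovery was tested on simulated data. For the gene lists and named genes, genes at several loci were taken at their first locus. In the counts over all genes, each of the 209 rows of such genes stood as a gene of its own, subject to the level filters.

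The members, the 50 gene lists and the rule for named genes were chosen with earlier results of these data known. The rule names the 12 highest and the 12 lowest genes with a name in the stricter set, up to 3 highest and 3 lowest 2-fold members of each list, and 12 fixed genes. Other genes named were chosen after their values were seen. Some results that fall under this rule are not reported here. The alternatives were another filter, a pseudocount, centring, recovered reads only, 4-fold and the mean. Python 3.11.15, numpy 2.4.6, pandas 2.3.3, SciPy 1.17.1 and matplotlib 3.10.9 were used.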

Additional observations from a re-analysis of the deposited data

How the results depend on the processing

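Against 565 genes 2-fold higher and 350 lower, no level filter gave 1092 and 850, the stricter filter 150 and 79, recovered reads alone 197 and 77, and a 4-fold threshold 132 and 75. These settings test other numbers of genes or another size, so the counts differ by construction. A pseudocount of 5 normalized reads and centring on the median kept both counts within 1.5 times. Over the 50 list medians, a move of more than 0.13 was seen in 8 with the pseudocount, 11 with no filter, 11 with the mean, 19 of 47 with the stricter filter and 27 of 44 with recovered reads alone. The pseudocount was counted as moving 102 of 168 named genes, with low genes drawn towards 0. For genes without recovered reads, a move is again one of more than 0.13. Genes with recovered reads were counted as unmoved where the new value stayed inside their counting interval. The 102 therefore leave out larger moves, such as Cyp2c24 from 5.81 to 4.97 and Slc4a1 from 3.97 to 2.72. The pseudocount took 19 named genes below 2-fold, and no named gene changed sign with it. List medians close to 0 are less firm: 18 of the 50 changed sign under some setting, 14 with recovered reads alone, 6 with the mean, 5 with the stricter filter and 2 with no filter. Among them the growth hormone median of -0.51 stood beside 3.59 for Cish, the only kept member with recovered reads. The clock median of 0.12 stood beside -0.03 under the stricter filter. The G1 median of -0.13 stood beside 0.54 over the recovered reads of 2 genes, and the p53 median of -0.17 beside 0.07 under the stricter filter. The causes were not tested. No paired analysis was possible because each group is 1 library. For the same reason no replicate could be left out, and the difference between animals is not measured.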
